A study of Homo sapiens with 6 samples.

Results

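The genes described here build and control the contacts of an epithelial sheet. They are 41 genes: 5 of adherens junctions, 14 of tight junctions and cell polarity, 9 of desmosomes, 7 keratins and 6 epithelial transcription or splicing factors. They were picked by symbol from a deposited table of 32692 human genes. A row was found for 39 of them, whereas the levels of KRT5 and GRHL2 were not analysed here. Averaged over the 6 libraries, 31 reached 1 or more, and these were tested.

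RNA came from DU145, an established human prostate carcinoma cell line, after 24 h with 5 µM OTI-611, a compound that the labels give by code name alone, or with the solvent DMSO alone. Each group held 3 libraries, numbered 1 to 3 in the labels, and no genetic change separates the groups. Whether the libraries stem from separate cultures is not stated. The p-values therefore reflect the spread among these libraries alone, and that spread may be technical. The values were read as RPKM, which scales reads by gene length and by depth, so that levels can be set side by side between genes. DMSO 1 is the exception. It holds whole numbers only, read here as RPKM with the decimals dropped. Its average difference from DMSO 2 and DMSO 3 was -0.472 to -0.533 for genes at 1 to 50 RPKM and -0.918 for genes at 50 to 200 RPKM. Fold differences given below as ratios or percentages therefore set the OTI-611 mean against the mean of DMSO 2 and DMSO 3. The log2 fold changes, in contrast, come from the fit of all libraries, DMSO 1 included, unless stated otherwise. The steps between low values gave estimated depths of 37.3, 37.2 and 37.7 M reads for OTI-611 libraries 1 to 3, against 30.7 M reads in DMSO 2 and 32.3 M reads in DMSO 3. No estimate was had for DMSO 1. Epithelial markers were present in every library, with KRT8 at 103 to 109 RPKM with OTI-611 and 146 to 153 with DMSO, and EPCAM at 13.0 to 15.2 RPKM with OTI-611 and 13 to 14.6 with DMSO. Of 9 leukocyte, fibroblast and endothelial markers listed, 7 had a row. Together they summed to 0.20 to 0.24 RPKM with OTI-611 and to 0.78 and 0.85 RPKM in DMSO 2 and DMSO 3. DMSO 1, at 0, cannot resolve such levels. Most of each sum was the fibroblast marker COL1A1, at 0.16 to 0.19 RPKM with OTI-611 and 0.66 and 0.73 RPKM in DMSO 2 and DMSO 3. In bulk RNA, fewer cells expressing a gene and less RNA per cell cannot be told apart.

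Adherens junctions hold neighbouring cells together through classical cadherins, whose inner tails bind p120-catenin and either beta-catenin or plakoglobin, and alpha-catenin ties that complex to actin. Tight junctions seal the space between cells with claudins, occludin and other membrane proteins held by zonula occludens scaffolds, while the PAR and Crumbs complexes set the border between apical and lateral membrane. Desmosomes are spot welds in which desmosomal cadherins, plakophilins and desmoplakin anchor keratin filaments, and each keratin filament pairs an acidic type I with a basic type II keratin. Prostate carcinoma lines carry the simple epithelial pair KRT8 and KRT18, and loss of CDH1 is a familiar step as carcinoma cells loosen their contacts.

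With OTI-611 the contact genes did not move one way. E-cadherin, P-cadherin and plakoglobin fell, cingulin fell, and envoplakin, periplakin and PKP4 of the desmosome group fell, whereas claudin 1, claudin 12, PAR6 beta and keratin 81 rose. Of the 31 tested members, 9 were higher and 14 lower with OTI-611 at a limma adjusted p under 0.05, and 8 did not pass. Across all 11978 genes tested 65.2% passed, 27.8% higher and 37.3% lower, so the members' share of calls lay near the background. After quantile normalization 10 members were higher and 14 lower, against 34.1% and 34.4% of all genes. Without DMSO 1, 7 members were higher and 14 lower, while 68.7% of all genes passed, 26.3% higher and 42.4% lower. The median log2 fold change was -0.12 over the members and -0.05 over all genes. In size, 5 members (CLDN1, KRT81, PARD6B, CGN and CDH1) moved by at least 1 on the log2(value + 1) scale, which is 16.1% of the 31, against 4.01% of all genes. Members were chosen with earlier results of these data known, so that share is a description only. In 23 of the 31 the 3 OTI-611 libraries lay all on one side of the 3 DMSO libraries, 9 above and 14 below, against 70.2% of all genes.

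**Figure D1:**
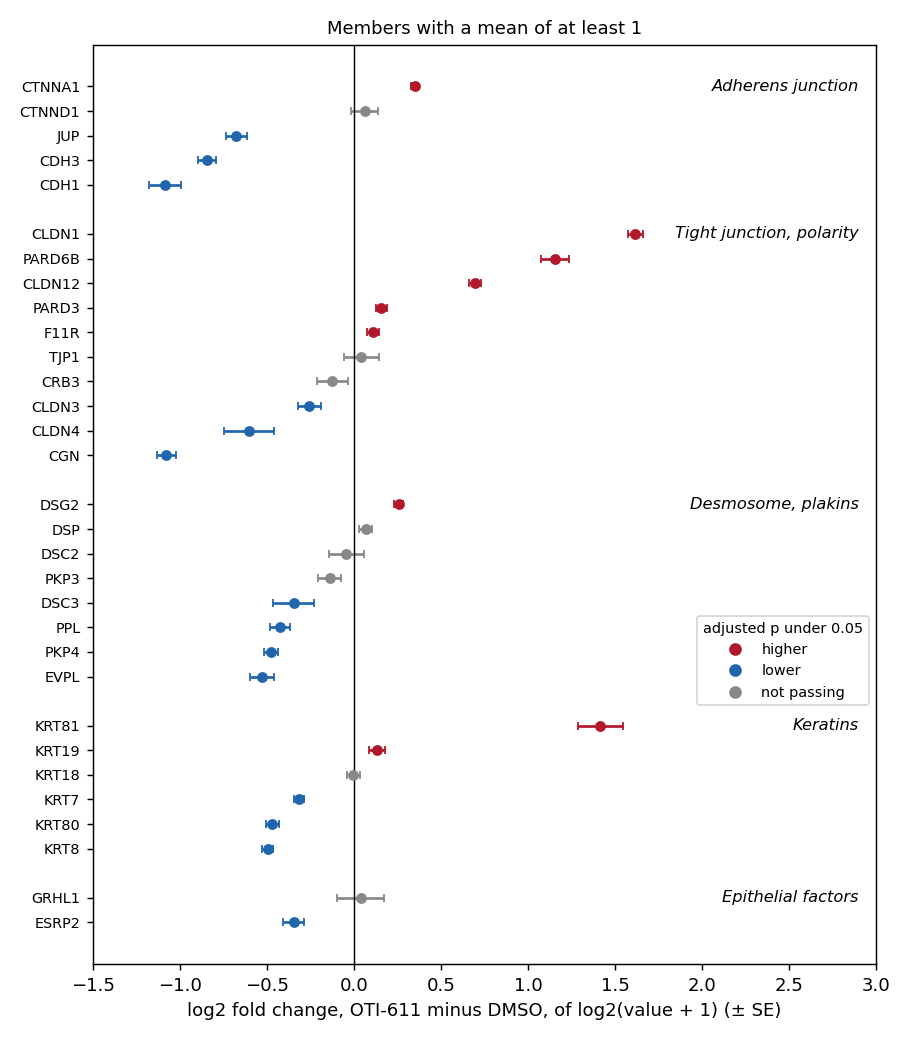
Log2 fold change of the 31 tested members (horizontal axis, OTI-611 minus DMSO, on the log2(value + 1) scale, bars ± SE), grouped by role and coloured by whether the limma adjusted p is under 0.05. CLDN1 lies farthest to the right at 1.62 and CDH1 farthest to the left at -1.09.

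Among the adherens junction genes CDH1, CDH3 and JUP fell, CTNNA1 rose and CTNND1 did not pass. CDH1 (ENSG00000039068) encodes E-cadherin, the cadherin of most epithelia, and lies on chromosome 16 from 68737225 to 68835548 in GENCODE 29 on GRCh38. It stood at 1.45, 1.46 and 1.71 RPKM in OTI-611 libraries 1, 2 and 3, against 4, 4.39 and 4.80 RPKM in DMSO libraries 1, 2 and 3. All OTI-611 libraries lay below all DMSO libraries, at 33.5% of the mean of DMSO 2 and DMSO 3. The log2 fold change was -1.09 ± 0.092 (SE, limma adjusted p = 7.11e-06). An estimated 335 to 399 reads with OTI-611 and 833 and 959 reads in DMSO 2 and DMSO 3 stand behind these levels. CDH3, which encodes P-cadherin, sits 14.6 kb away on the same chromosome and was the more abundant cadherin of the pair in every library.

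CDH3 stood at 11.7, 10.9 and 11.05 RPKM with OTI-611, against 20, 20.4 and 22.4 RPKM with DMSO, with no overlap between the groups. Its log2 fold change was -0.84 ± 0.050 (SE, limma adjusted p = 8.06e-07). The level of CDH3 was 7.33 ± 0.81 times that of CDH1 with OTI-611 and 4.77 ± 0.20 times with DMSO (SD, n = 3 per group), since CDH1 fell by the larger factor.

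The catenins divided. JUP encodes plakoglobin, which serves adherens junctions and desmosomes alike, and stood at 5.07, 5.27 and 5.79 RPKM with OTI-611, against 9, 8.93 and 9.61 RPKM with DMSO. It fell to 58.0% of the mean of DMSO 2 and DMSO 3 (log2 fold change -0.68 ± 0.060, SE, limma adjusted p = 9.03e-06). CTNNA1, the alpha-catenin that links the complex to actin, was by far the most abundant member of the adherens group and rose. Its level was 202, 202 and 201 RPKM with OTI-611, against 158, 158 and 158 RPKM with DMSO, a tight spread in both groups (log2 fold change 0.35 ± 0.021, SE, limma adjusted p = 7.90e-07). CTNND1, which encodes p120-catenin and stabilizes cadherins at the membrane, did not pass, at 3.43, 3.08 and 3.03 RPKM with OTI-611 and 3, 2.93 and 3.08 RPKM with DMSO. The 2 groups overlapped for it (log2 fold change 0.06, limma adjusted p = 0.51). In GENCODE, exons of other genes, among them a read-through gene joining TMX2 and CTNND1, cover 4.64% of its exon bases, and how reads on shared bases were handled is not given in the sources used here.

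Other adherens genes were listed as partners of the members. Among 10 tested, 2 rose and 6 fell, where 27.8% of all genes were higher and 37.3% lower. Their median log2 fold change was -0.18, against -0.05 over all genes. The nectins NECTIN1 and NECTIN2, which form a second adhesion system beside cadherins, fell by 0.71 and 0.57 on the log2 scale (limma adjusted p = 1.63e-06 and 3.36e-06). AFDN, the afadin that ties nectins to actin, rose by 0.35 on that scale (limma adjusted p = 1.77e-05), and VEZT, which encodes the cadherin-associated vezatin, by 0.29 (limma adjusted p = 1.44e-05). CTNNB1, named here as the partner that JUP can replace and after its values were seen, stood at 55.8 to 57.7 RPKM with OTI-611 and 56.0 to 57 with DMSO (log2 fold change 0.006, limma adjusted p = 0.86). 

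**Figure D2:**
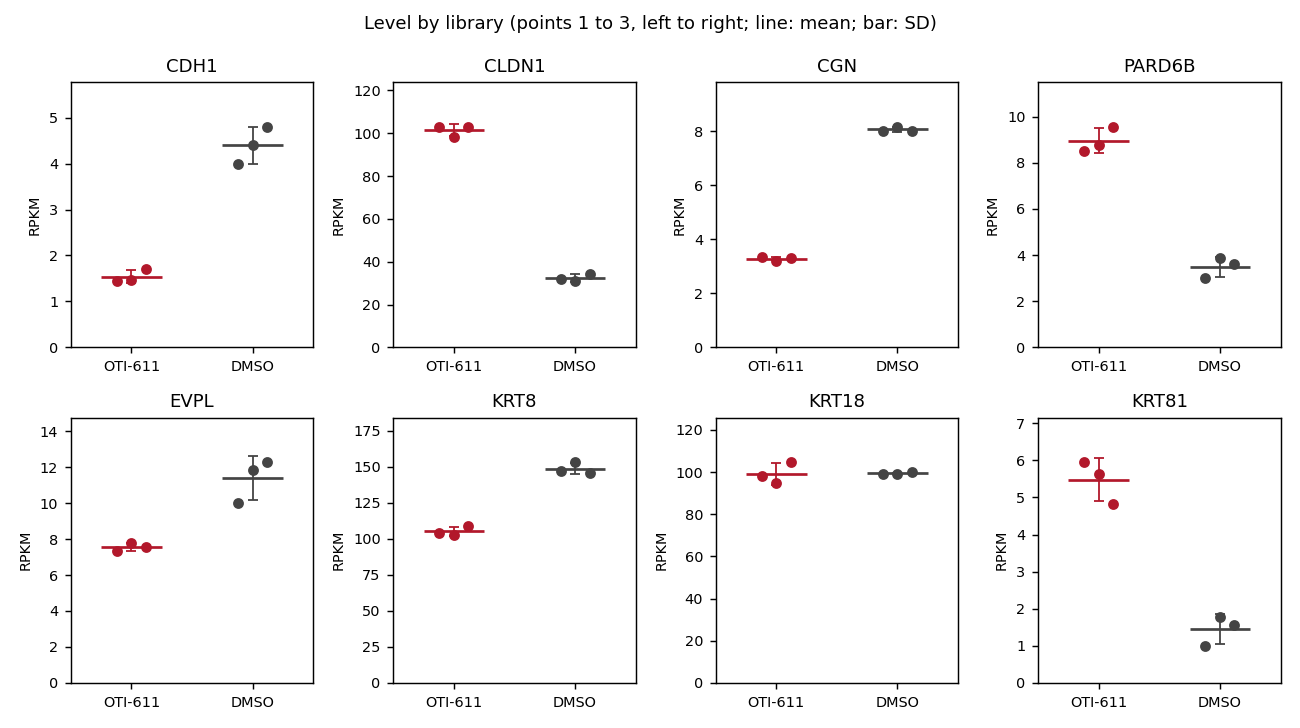
RPKM of 8 members in each library (vertical axes start at 0; points are libraries 1 to 3 from left to right, lines are means and bars are SD, n = 3 per group; DMSO 1 holds whole numbers). CDH1, CGN, EVPL and KRT8 lie lower with OTI-611 and CLDN1, PARD6B and KRT81 higher, with no overlap, while the groups overlap for KRT18.

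Tight junction and polarity genes moved in both directions. The largest changes were the rises of CLDN1 and PARD6B, followed by the fall of CGN. Of 10 tested, 5 were higher, 3 lower and 2 did not pass, where 27.8% of all genes were higher and 37.3% lower. CLDN1 (ENSG00000163347), a sealing claudin that lines epithelial barriers, lies on chromosome 3 from 190305701 to 190322475. It stood at 103, 98.1 and 103 RPKM with OTI-611, against 32, 30.9 and 34.4 RPKM with DMSO. That is 3.11 times the mean of DMSO 2 and DMSO 3, with a log2 fold change of 1.62 ± 0.041 (SE, limma adjusted p = 9.81e-09), the highest rise among the tested members on the log2(value + 1) scale. As a ratio to DMSO 2 and DMSO 3, KRT81 at 3.28 lay above it.

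CLDN12, a claudin without the usual binding tail for zonula occludens proteins, rose as well, to 60.2, 64.1 and 64.0 RPKM with OTI-611, against 38, 39.7 and 37.5 RPKM with DMSO (log2 fold change 0.69 ± 0.035, SE, limma adjusted p = 3.26e-07). In GENCODE, 16.3% of CLDN12's exon bases are shared with other genes. The order of the claudins changed with these rises: CLDN1 lay above CLDN12 in each OTI-611 library and below it in each DMSO library. CLDN3 and CLDN4, sealing claudins whose genes lie 29.3 kb apart on chromosome 7, fell. CLDN3 stood at 14.8, 15.3 and 16.6 RPKM with OTI-611 and 18, 20.9 and 17.7 RPKM with DMSO (log2 fold change -0.26, limma adjusted p = 0.0069). CLDN4 stood at 1.67, 1.34 and 1.23 RPKM with OTI-611 and 2, 2.95 and 3.14 RPKM with DMSO (log2 fold change -0.60, limma adjusted p = 0.0043). Neither gene showed an overlap between the groups. CLDN7, which shares much of its expression pattern with CLDN3 and CLDN4 in simple epithelia, was near 0 throughout, at 0 to 0.028 RPKM with OTI-611 and 0 to 0.11 with DMSO. Summed, the 5 member claudins reached 181 ± 3.3 RPKM with OTI-611 and 92.4 ± 2.3 RPKM with DMSO (SD, n = 3 per group). CLDN1 made up 56.0 ± 1.3% of that sum with OTI-611 and 35.1 ± 2.2% with DMSO, and CLDN3 made up 8.59 ± 0.38% and 20.4 ± 1.6% in the same groups.

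**Figure D3:**
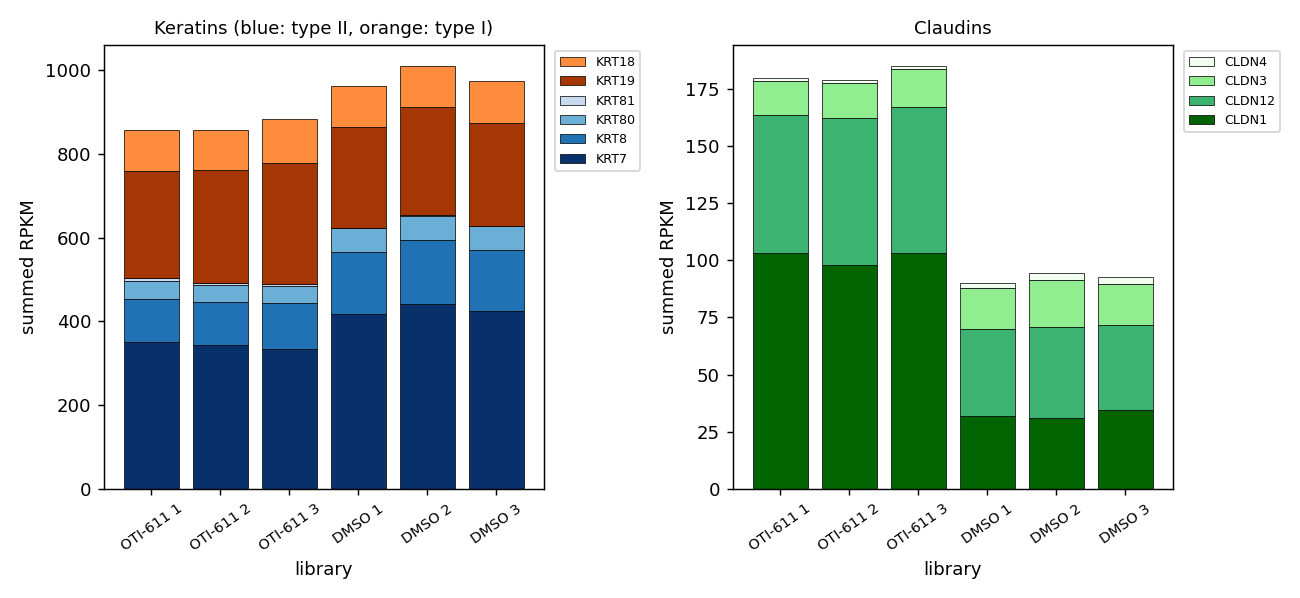
Stacked RPKM of 6 keratins (left panel; type II in blue, type I in orange) and 4 claudins (right panel) in each library, with OTI-611 libraries left of DMSO libraries. The claudin bars with OTI-611 are higher by CLDN1 and CLDN12, and the keratin bars are lower in their blue part.

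Among the scaffold and polarity genes, too, changes in both directions were seen. CGN encodes cingulin, which joins tight junction plaques to the actin and microtubule skeleton, and lies on chromosome 1 from 151510510 to 151538692. It stood at 3.33, 3.22 and 3.32 RPKM with OTI-611, against 8, 8.17 and 8.02 RPKM with DMSO, and so fell to 40.6% of the mean of DMSO 2 and DMSO 3 (log2 fold change -1.08 ± 0.054, SE, limma adjusted p = 3.01e-07). PARD6B, one of the PAR6 adaptors that bring atypical protein kinase C to the apical domain, lies on chromosome 20 from 50731544 to 50756795. Its level was 8.51, 8.79 and 9.57 RPKM with OTI-611, against 3, 3.86 and 3.60 RPKM with DMSO, a 2.40-fold rise over DMSO 2 and DMSO 3 (log2 fold change 1.15 ± 0.081, SE, limma adjusted p = 2.23e-06). Neither gene showed any overlap between its groups.

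PARD3, the PAR3 scaffold that recruits PAR6 to forming junctions, rose by a small amount, to 31.0, 31.1 and 30.4 RPKM with OTI-611, against 27, 28.4 and 27.3 RPKM with DMSO (log2 fold change 0.16, limma adjusted p = 0.0019). F11R encodes the junctional adhesion molecule JAM-A and stood at 18.1, 17.3 and 17.6 RPKM with OTI-611, against 16, 16.4 and 16.5 RPKM with DMSO. Its log2 fold change of 0.11 had a limma adjusted p of 0.022, but leaving out DMSO 1 ended the call (limma adjusted p = 0.052), as did leaving out OTI-611 1 (0.071) or OTI-611 3 (0.0503). Exons of a read-through gene cover 36.6% of its exon bases. TJP1, the scaffold ZO-1, stood at 4.99, 6.10 and 4.24 RPKM with OTI-611 and at 5, 4.75 and 4.93 RPKM with DMSO, so its groups overlapped (log2 fold change 0.04, limma adjusted p = 0.74). CRB3, the epithelial Crumbs protein, also overlapped, at 5.79 to 6.99 RPKM with OTI-611 and 6 to 7.56 RPKM with DMSO (log2 fold change -0.12, limma adjusted p = 0.25).

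Promoter windows of RefSeq on GRCh38.p14 were found for 22 of the 41 members, 34 windows in all, since some genes have several starts. CDH1, CDH3 and KRT81 are not among the 22. Stretches before the RefSeq start of CLDN1, which rose, and of CLDN3 and CGN, which fell, are shown because these tight junction genes moved in opposite directions. RefSeq and GENCODE starts can differ. The CGN stretch lies inside the GENCODE span of CGN, which begins at 151510510. They run 5′ to 3′ on the gene's strand, and capitals mark letters of a searched motif. That of CLDN1 covers chr3:190322476-190322540 on the minus strand, that of CLDN3 chr7:73770271-73770520 on the minus strand and that of CGN chr1:151511137-151511386 on the plus strand. Exons of CLDN1 and of CLDN16, which starts on the other strand, cover 150 bases of the CLDN1 window. Only the longest stretch free of exons, 65 bases, is shown for CLDN1.
CLDN1: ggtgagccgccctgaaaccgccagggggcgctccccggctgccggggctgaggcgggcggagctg
CLDN3: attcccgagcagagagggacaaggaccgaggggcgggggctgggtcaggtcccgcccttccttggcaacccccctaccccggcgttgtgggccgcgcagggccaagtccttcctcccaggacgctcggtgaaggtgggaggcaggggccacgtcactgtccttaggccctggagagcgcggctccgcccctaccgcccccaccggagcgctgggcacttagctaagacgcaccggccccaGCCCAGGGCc
CGN: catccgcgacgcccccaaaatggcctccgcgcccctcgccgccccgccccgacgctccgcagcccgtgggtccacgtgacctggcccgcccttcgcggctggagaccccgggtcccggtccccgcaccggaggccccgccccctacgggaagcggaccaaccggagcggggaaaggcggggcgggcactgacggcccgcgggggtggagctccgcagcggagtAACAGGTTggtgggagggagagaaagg

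Motifs were searched on both strands in the 250 bases before each start. The E-box CAGGTG, the letters that SNAI and ZEB repressors bind, was found in 12 of the 34 windows (35.3%), against 17.5% of 35116 windows of all genes. These 12 include the window of KRT5, whose level was not analysed. The AP-2 letters GCCNNNGGC were found in 10 windows (29.4%), against 19.8% of all, and one match closes the CLDN3 stretch above. The Grainyhead letters AACCNGTT were found in 1 window (2.94%), that of CGN, against 1.49% of all. Windows of one gene can overlap, and a match is a run of letters, not a bound site. The E-box was present for 1 of 4 members that rose, 1 of 7 that fell and 4 of 5 that did not pass. The AP-2 letters were present for 3 of 4 that rose, 3 of 7 that fell and 1 of 5 that did not pass. Both counts are per gene over any of its windows, so genes with several windows had more chances of a match. The shares of all genes above are per window, and no share per gene was computed. For CRB3, DSC2 and TJP1, which did not pass, the bases after the E-box window were not found in a GENCODE transcript of the gene. The same held for the windows of DSC2 and PKP4 with AP-2 letters. Such windows are included in all these counts, so their starts are less certain.

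Other tight junction and polarity genes were tested in 21 cases, of which 5 rose and 9 fell, shares near the 27.8% higher and 37.3% lower of all genes. Their median log2 fold change was -0.11. The claudins CLDN11 and CLDN15, the second of which forms cation pores in the intestine, fell by 1.07 and 1.12 on the log2 scale (limma adjusted p = 2.93e-07 and 8.20e-06). CLDN15 stood at 1.29, 1.53 and 1.61 RPKM with OTI-611, against 4, 4.89 and 4.30 RPKM with DMSO. The lateral polarity genes DLG1 and LLGL2, of the Scribble module that opposes the apical PAR complex, fell by 0.51 and 0.76 on the log2 scale (limma adjusted p = 3.55e-05 and 3.61e-05). Their module partners SCRIB and LLGL1 did not pass, with log2 fold changes of -0.002 and 0.01 (limma adjusted p = 0.99 and 0.90). Without DMSO 1, 3 of these 21 rose and 11 fell, where 26.3% of all genes were higher and 42.4% lower.

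**Figure D4:**
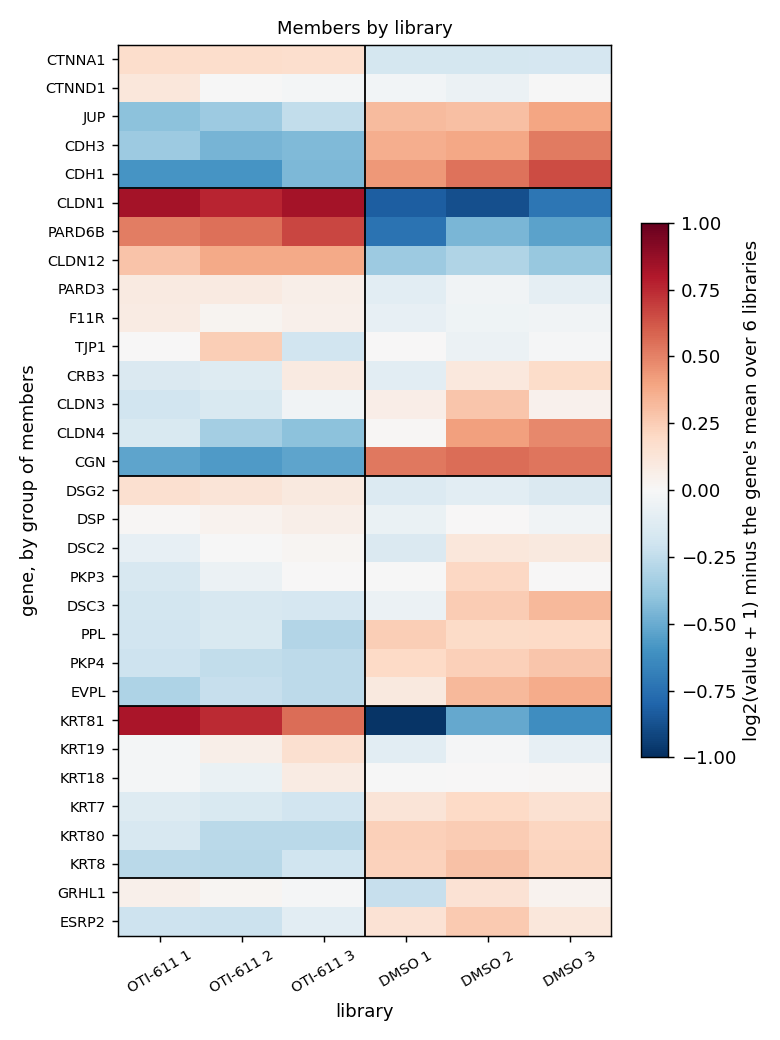
Each tested member (rows, by group) in each library (columns), as log2(value + 1) minus the gene's mean over the 6 libraries, with OTI-611 on the left of the vertical line and DMSO on the right. CLDN1, PARD6B and KRT81 are red with OTI-611, CDH1 and CGN blue, and DMSO 1 is paler or bluer than DMSO 2 and DMSO 3 in low genes such as CLDN4, DSC2 and DSC3.

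In the desmosome group EVPL, PPL, PKP4 and DSC3 fell while DSG2 rose and DSP did not pass. Among 8 tested members 1 was higher and 4 were lower, where 27.8% of all genes were higher and 37.3% lower. The median log2 fold change of the group was -0.24. DSG2, desmoglein 2, the desmosomal cadherin of simple epithelia, was the most abundant and stood at 91.1, 89.1 and 87.1 RPKM with OTI-611, against 74, 75.8 and 73.5 RPKM with DMSO (log2 fold change 0.26 ± 0.027, SE, limma adjusted p = 2.70e-05). Its groups did not overlap.

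EVPL and PPL encode envoplakin and periplakin, plakins that join keratin to desmosomes and to the cornified envelope of skin. EVPL stood at 7.32, 7.76 and 7.58 RPKM with OTI-611, against 10, 11.9 and 12.3 RPKM with DMSO (log2 fold change -0.53 ± 0.071, SE, limma adjusted p = 1.39e-04). PPL stood at 4.92, 5.10 and 4.51 RPKM with OTI-611, against 7, 6.74 and 6.78 RPKM with DMSO (log2 fold change -0.43 ± 0.059, SE, limma adjusted p = 1.79e-04). Both partners of the plakin pair therefore fell with no overlap between groups. PKP4, a plakophilin-related protein of adherens junctions and desmosomes, stood at 11.1, 10.8 and 10.7 RPKM with OTI-611, against 15, 15.5 and 15.9 RPKM with DMSO (log2 fold change -0.48 ± 0.040, SE, limma adjusted p = 7.10e-06).

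The desmocollins are the second class of desmosomal cadherins, and DSC2 and DSC3 lie 16.0 kb apart on chromosome 18. DSC3 stood at 1.75, 1.80 and 1.78 RPKM with OTI-611, against 2, 2.73 and 2.93 RPKM with DMSO (log2 fold change -0.35 ± 0.12, SE, limma adjusted p = 0.027). DMSO 1, listed as 2, lies low here, and the fall was -0.46 without it (limma adjusted p = 8.23e-04). The call for DSC3 was lost without any one of the other 5 libraries, with limma adjusted p of 0.086 and 0.10 without DMSO 2 and DMSO 3 and of 0.069, 0.066 and 0.068 without OTI-611 1, 2 and 3. DSC2 stood at 2.13 to 2.35 RPKM with OTI-611 and 2 to 2.57 with DMSO (log2 fold change -0.04, limma adjusted p = 0.72). Desmoplakin itself, the plaque protein that holds keratin, did not pass: DSP stood at 12.7, 12.9 and 13.2 RPKM with OTI-611, against 12, 12.7 and 12.3 RPKM with DMSO (log2 fold change 0.07, limma adjusted p = 0.17). It passed as higher after quantile normalization and after rescaling to the median log ratio (limma adjusted p = 0.029 and 0.027). PKP3, the plakophilin found in most desmosomes, overlapped at 17.9 to 20.1 RPKM with OTI-611 and 20 to 23.3 RPKM with DMSO (log2 fold change -0.14, limma adjusted p = 0.080).

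Among 5 further desmosome and hemidesmosome genes, none rose and 2 fell, where 27.8% of all genes were higher and 37.3% lower. These falls were small: DST, which encodes the plakin dystonin, by 0.12 on the log2 scale (limma adjusted p = 0.016) and COL17A1, a hemidesmosomal collagen, by 0.16 (limma adjusted p = 0.020). PKP1 and PERP, both components of desmosomes in stratified epithelia, stood at log2 fold changes of 0.20 and 0.05 (limma adjusted p = 0.078 and 0.17).

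KRT7 and KRT8, the type II keratins of simple epithelia, and KRT80 fell, whereas the type I keratins KRT18 and KRT19 did not. Of 6 tested, 2 were higher, 3 lower and 1 did not pass, where 27.8% of all genes were higher and 37.3% lower. KRT7 was the most abundant member of all and stood at 350.4, 344 and 335 RPKM with OTI-611, against 418, 441 and 425 RPKM with DMSO (log2 fold change -0.32 ± 0.028, SE, limma adjusted p = 9.43e-06). KRT8 stood at 104, 103 and 109 RPKM with OTI-611, against 147, 153 and 146 RPKM with DMSO (log2 fold change -0.50 ± 0.031, SE, limma adjusted p = 1.07e-06). KRT80, a type II keratin tied to desmosomes and cytoskeletal edges, stood at 43.1, 39.8 and 39.8 RPKM with OTI-611, against 57, 57.6 and 56.2 RPKM with DMSO (log2 fold change -0.47 ± 0.035, SE, limma adjusted p = 3.32e-06). These 3 genes lay lower in every OTI-611 library than in any DMSO library.

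KRT18, the type I partner of KRT8, stood at 97.9, 94.7 and 105 RPKM with OTI-611, against 99, 99.2 and 99.8 RPKM with DMSO, so the OTI-611 libraries lay on both sides of the DMSO libraries (log2 fold change -0.004 ± 0.036, SE, limma adjusted p = 0.93). KRT8 and KRT18 are neighbours whose exons overlap in GENCODE, over 7.63% of the exon bases of KRT8 and 16.3% of those of KRT18. The level of KRT8 was 1.06, 1.08 and 1.04 times that of KRT18 in the OTI-611 libraries, against 1.49, 1.54 and 1.46 times in the DMSO libraries. KRT19, a type I keratin without the usual tail, stood at 255, 270.3 and 289 RPKM with OTI-611, against 240, 258 and 245 RPKM with DMSO, and the groups overlapped. Its log2 fold change of 0.13 ± 0.045 (SE) had a limma adjusted p of 0.028, but the call was lost without DMSO 1 (0.10), without DMSO 3 (0.071), without OTI-611 2 (0.054) and without OTI-611 3 (0.087).

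KRT81 was the exception among type II keratins. It is a hard keratin of hair, also found in some carcinoma lines, and lies on chromosome 12 from 52285913 to 52291534, 33.7 kb from KRT7 and 93.9 kb from KRT80. It stood at 5.96, 5.64 and 4.83 RPKM with OTI-611, against 1, 1.77 and 1.57 RPKM with DMSO, a 3.28-fold rise over DMSO 2 and DMSO 3 (log2 fold change 1.41 ± 0.13, SE, limma adjusted p = 1.16e-05). An estimated 351 to 429 reads with OTI-611 and 98 and 105 reads in DMSO 3 and DMSO 2 lie behind these values. Its close copy KRT86, from which reads can be hard to tell apart, stood at 0.61, 0.62 and 0.39 RPKM with OTI-611 and at 0, 0.71 and 0.89 RPKM with DMSO, under the minimum for testing. The level of KRT81 is therefore uncertain to the extent that reads were shared between the copies.

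Summed over the 4 type II keratins, the level was 494.5 ± 7.7 RPKM with OTI-611 and 635 ± 16 RPKM with DMSO (SD, n = 3 per group). The 2 type I keratins summed to 371 ± 21 RPKM with OTI-611 and 347 ± 9.0 RPKM with DMSO. The ratio of type II to type I was 1.43, 1.35 and 1.24 in the OTI-611 libraries, against 1.84, 1.83 and 1.82 in the DMSO libraries. These ratios follow from the member values above and are given without a test. Of the 2 other keratins tested, KRT10, a type I keratin of suprabasal epidermis, rose to 10.4, 8.76 and 9.78 RPKM with OTI-611, against 6, 6.37 and 7.18 RPKM with DMSO (log2 fold change 0.50, limma adjusted p = 3.04e-04), and KRT15 did not pass (0.06, limma adjusted p = 0.70).

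The epithelial factors were expressed at low levels. Of 6, only ESRP2 and GRHL1 were tested. ESRP2, an RNA-binding protein that directs epithelial splicing, stood at 6.05, 6.02 and 6.58 RPKM with OTI-611, against 8, 8.78 and 7.79 RPKM with DMSO, and fell by 0.35 ± 0.060 on the log2 scale (SE, limma adjusted p = 7.02e-04). GRHL1, a Grainyhead transcription factor of surface epithelia, overlapped at 1.44, 1.38 and 1.33 RPKM with OTI-611 and 1, 1.60 and 1.40 RPKM with DMSO (log2 fold change 0.04, limma adjusted p = 0.82). The sign for GRHL1 turned to -0.07 without DMSO 1.

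The 8 remaining members with a row lay under the minimum mean, and DMSO 1, at 0 for each of them, cannot resolve such levels. They were fitted without a filter and without DMSO 1, a choice made after the values were seen, in which 29.9% of 31787 genes passed a limma adjusted p of 0.05. ESRP1, the sister of ESRP2, stood at 0.98, 0.91 and 0.74 RPKM with OTI-611, against 0.41 and 0.34 RPKM in DMSO 2 and DMSO 3, so it was higher where ESRP2 was lower (log2 fold change 0.45, limma adjusted p = 0.025). OCLN encodes occludin, the first tight junction membrane protein described, and was also higher, at 1.15, 1.53 and 1.19 RPKM with OTI-611, against 0.71 and 0.72 RPKM in DMSO 2 and DMSO 3 (log2 fold change 0.41, limma adjusted p = 0.045). TJP3, the scaffold ZO-3, was lower, at 0.34, 0.33 and 0.34 RPKM with OTI-611, against 1.16 and 0.93 RPKM in DMSO 2 and DMSO 3 (log2 fold change -0.62, limma adjusted p = 0.0063). ELF3, an epithelial ETS factor, was lower too, at 0.26, 0.26 and 0.25 RPKM with OTI-611, against 0.52 and 0.60 RPKM in DMSO 2 and DMSO 3 (log2 fold change -0.31, limma adjusted p = 0.017). In GENCODE, 18.5% of ELF3's exon bases are shared with other genes, its antisense gene among them.

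The other low members did not pass in that fit. PKP2, the plakophilin of simple epithelia and heart, stood at 0.55 to 0.76 RPKM with OTI-611 and 0.43 and 0.62 RPKM in DMSO 2 and DMSO 3 (limma adjusted p = 0.41). MARVELD2, the tricellulin of three-cell contacts and a neighbour of OCLN at 48.0 kb, stood at 0.18 to 0.25 RPKM with OTI-611 and 0.17 and 0.26 RPKM in DMSO 2 and DMSO 3 (limma adjusted p = 0.85). CLDN7, with an estimated 0 to 3 reads with OTI-611 and 0 and 9 reads in DMSO 2 and DMSO 3, and OVOL1, a zinc finger factor that restrains mesenchymal genes, with at most 1 estimated read in any library, were barely detected, so no difference was detectable at this depth (limma adjusted p = 0.46 and 0.89).

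Of 6 other factors of epithelial identity tested, none rose and 3 fell, at a median log2 fold change of -0.30. Across all genes 27.8% were higher and 37.3% lower, so a count over 6 genes is given as a description only. TFAP2A, the AP-2 alpha factor, fell to 4.26, 4.85 and 3.84 RPKM with OTI-611, against 14, 14.6 and 13.4 RPKM with DMSO (3.25-fold lower than DMSO 2 and DMSO 3, limma adjusted p = 2.38e-07). FOXA1, a pioneer factor of prostate epithelium, fell by 0.50 on the log2 scale (limma adjusted p = 3.09e-05) and RBM47, an RNA-binding protein of epithelial splicing, by 0.64 (limma adjusted p = 0.0011). TFAP2C, a second AP-2 factor, stood at -0.10 (limma adjusted p = 0.17).

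Genes that oppose the epithelial state were counted beside them. Of 6 tested transcription factors and mesenchymal genes, 3 (SNAI2 among them) rose, none fell and 3 did not pass. Across all genes 27.8% were higher and 37.3% lower. Without DMSO 1, 3 rose and 2 fell, SNAI1 and FN1, where 26.3% of all genes were higher and 42.4% lower. These counts over 6 genes are given as a description only. ZEB1, an E-box-binding repressor of epithelial genes, rose to 12.1, 13.8 and 12.7 RPKM with OTI-611, against 6, 6.75 and 6.50 RPKM with DMSO (log2 fold change 0.90 ± 0.061, SE, limma adjusted p = 1.80e-06). SNAI2, a related repressor that reached the minimum mean only through its level with OTI-611, stood at 2.38, 1.84 and 2.02 RPKM with OTI-611, against 0, 0.89 and 0.59 RPKM with DMSO (log2 fold change 1.09 ± 0.22, SE, limma adjusted p = 0.0020). SNAI1, which reached the minimum mean only through its level with DMSO, went the other way in value. It stood at 0.91, 1.08 and 0.67 RPKM with OTI-611 and 1, 1.49 and 1.84 RPKM with DMSO. It did not pass with all 6 libraries (log2 fold change -0.36, limma adjusted p = 0.081) but did without DMSO 1 (-0.50, limma adjusted p = 0.0085). VIM, the vimentin filament gene, was higher, at 478, 469.5 and 479.7 RPKM with OTI-611, against 385, 384 and 379 RPKM with DMSO (log2 fold change 0.31, limma adjusted p = 2.10e-06). FN1, the matrix protein fibronectin, lay the other way, at 1.13, 0.97 and 0.99 RPKM with OTI-611 and 1, 1.72 and 1.71 RPKM with DMSO. It did not pass with all 6 libraries (log2 fold change -0.27, limma adjusted p = 0.14) but did without DMSO 1 (-0.42, limma adjusted p = 0.0034). The part of these genes in the level of any junction gene was not tested.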

How the data were processed

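The authors deposited 1 table with 1 column per library and no named unit. Of its columns, 5 were taken as RPKM from their decimals, sums and steps, though FPKM could not be told apart, while DMSO 1, deposited as whole numbers, has the unit class score because rounding to whole numbers keeps it from being checked as RPKM. It was read as RPKM with the decimals dropped and fitted with the other libraries. No other columns of per-sample values were present. Per the submitters' processing notes, HTSeq, Cufflinks 2.1.1, TopHat2 2.0.9, FastQC and CASAVA 1.7 were used in roles not given, with mm10, a mouse build, whereas all 32692 IDs are human Ensembl IDs. Per the labels' protocols, the RNA was amplified by Geo-seq and made into libraries with a transposase kit. No molecular identifiers are named, so reads are not molecules, and strand is not stated.

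On the log2(value + 1) scale, the 11978 genes averaging 1 or more were fitted with limma 3.58.1 in R 4.3.3 (group as the only term, mean-variance trend, two-sided test, p adjusted by Benjamini-Hochberg over all 11978, threshold 0.05). The design named a count test in case of counts, which did not apply. This scale understates changes of low genes. The fit was tested on simulated data. Members, partner lists and tests were chosen with earlier results of these data known. Full values were given for up to 5 tested members per group with the smallest p. Up to 4 tested partner genes per list with the smallest p were named, some with values and others by log2 fold change and adjusted p alone. Other members are given more briefly, and FN1, SCRIB and LLGL1 were named after their values were seen. Depth was estimated from steps of low values with GENCODE 29 exon lengths: 69.3% to 70.3% of low values were whole reads within 0.05. Positions are from GENCODE 29 on GRCh38, in which 30667 IDs were found. Promoter sequences are RefSeq's on GRCh38.p14. Alternatives were another pseudocount (0.1), other filters (none, a mean of 5), quantile and median scaling, whole numbers in all libraries, no trend, a replicate block and leaving out each library.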

Additional observations from a re-analysis of the deposited data

How the results depend on the processing

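Of 31 tested members, 22 kept their direction and their side of the threshold under all 14 alternatives that gave a value. Over these alternatives the members higher numbered 7 to 10 and the members lower 11 to 15, the low end of 11 coming with a minimum mean of 5, under which fewer genes were tested. All genes passing numbered 5879 to 8226. Calls for F11R, DSC3 and KRT19 were lost without single libraries, as given above. KRT19 was also lost without a filter (adjusted p = 0.16), with whole numbers in all libraries (0.12) and without the trend (0.089), and DSC3 without a filter (0.13), all by limma. Signs turned only where no call was made: TJP1 to -0.073 without OTI-611 2, DSC2 to 0.061 and 0.012 after quantile and median scaling and to 0.00019 without DMSO 2, KRT18 to 0.011 and 0.052 after these scalings and to 0.0045 and 0.028 without OTI-611 1 and 2, and GRHL1 to -0.071 without DMSO 1. The cause was not tested. With single libraries left out, log2 fold changes ran from -0.073 to 0.15 for TJP1, -0.13 to 0.00019 for DSC2, -0.044 to 0.028 for KRT18 and -0.071 to 0.12 for GRHL1. With the replicate number as a block, 7756 genes, 9 members higher and 15 lower passed, PKP3 being added (limma adjusted p = 0.037). Deviations of same-numbered libraries from their group means had r = 0.019, 0.00041 and -0.058 across genes. The dropped decimals of DMSO 1 shift the deviations within DMSO, so these values cannot tell whether the numbers mark pairs. In the main fit the numbers were not taken as pairs. Depth limits CLDN7 and OVOL1, and the dropped decimals of DMSO 1 limit every member under about 3 RPKM.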

Other observations

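Among keratins outside the member list, KRT4, a type II keratin of moist stratified epithelia, was listed at 0, 0 and 0.037 RPKM with OTI-611, against 0, 1.00 and 0.71 RPKM in DMSO libraries 1, 2 and 3. Its mean lay under the minimum for testing, DMSO 1 holds whole numbers only, and the gene was singled out after its values were seen. Fitted without a filter and without DMSO 1, it had a limma adjusted p of 0.0020.

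The PAR6 adaptors changed their order. PARD6B was 1.30 ± 0.071 times the level of PARD6A with OTI-611 and 0.597 ± 0.022 times with DMSO (SD, n = 3 per group), above it in each OTI-611 library and below it in each DMSO library. PARD6G, the remaining adaptor, stood at 0.48, 0.56 and 0.43 RPKM with OTI-611, against 1, 0.99 and 1.15 RPKM with DMSO. PARD6A and PARD6G were named after their values were seen.

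CLDN16, the neighbour of CLDN1 on the other strand, was listed at 0.19, 0.23 and 0.12 RPKM with OTI-611, against 0, 0.022 and 0.010 RPKM with DMSO, and was also named after its values were seen. In GENCODE 29, CLDN1 shares 0% of its exon bases with other genes.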
